A study of Homo sapiens with 2 samples.

Results

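The IL-1 family ligands and receptors examined here are 10 genes, chosen by symbol from general knowledge of the family out of the 60616 genes listed. They are the agonists IL1A, IL1B, IL33 and IL36G, the antagonists IL1RN and IL36RN, the receptor chains IL1R1, IL1RAP and IL1RL1, and the decoy receptor IL1R2. All 10 symbols were found, each with 1 identifier. They were measured by RNA sequencing in HSC-3, an established line of human tongue squamous cell carcinoma, with 1 library after 1 µM FIN56 for 48 h and 1 library after 0.1% DMSO, for which the labels state no time of its own. FIN56 induces ferroptosis, an iron-dependent death by lipid peroxidation, by promoting loss of the protein GPX4. The study chose a dose that it describes as sublethal, and asked with these libraries which genes ferroptotic stress raises in carcinoma cells.

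IL-1 family cytokines are alarm signals of barrier epithelium. An agonist binds its own receptor chain, the pair recruits the shared accessory chain IL1RAP, and the joined intracellular domains engage MYD88, the IRAK kinases and TRAF6 to reach NF-κB and MAP kinases. The family carries its own brakes, since IL1RN and IL36RN occupy the receptors without recruiting the accessory chain, and IL1R2 binds ligand but lacks the intracellular signalling domain.

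With 1 library per condition, no difference has a replicate check and no test between conditions was possible. FIN56 cannot be told apart from any other difference between the 2 cultures, nor a larger share of expressing cells from more RNA per cell. The fold change was the deposited FPKM (fragments scaled by effective gene length and library size) of the FIN56 library divided by that of the DMSO library, with the study's threshold of 1.5 and its inverse. Beside it stands the ratio of expected counts (RSEM's estimates of reads per gene) scaled by library totals, with a 95% exact Clopper-Pearson interval. These intervals cover counting error only, and without molecular identifiers the reads may include copies of 1 molecule. Expected counts totalled 70184517 with DMSO and 73062209 with FIN56, and those of all 10 genes were whole numbers, so none showed reads divided with another gene. The GPX4 transcript had an FPKM of 245.57 and 243.55, a ratio of 0.992. Transcript levels do not show the GPX4 protein, which the paper examined in FIN56-treated HSC-3 cells by western blot.

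The 8 squamous epithelial markers summed to 6712 TPM (transcripts scaled by length to a fixed sum per library) with DMSO and 6433 with FIN56, and each was detected in both libraries. The lower sum is mainly KRT5, at 3109 and 2517 TPM, while the count interval lay above 1 for 6 of the 8 and below 1 for 2, and their median log2 FPKM ratio was 0.14. Of 7 leukocyte markers, PTPRC, CD3E, NKG7 and FCGR3A had no count in either library. Their summed level was 6.15 and 8.62 TPM, nearly all of it CD14 at 5.41 and 7.87 TPM. Of 5 fibroblast markers none was at 0 in both libraries, and they summed to 7.58 and 4.49 TPM, mostly COL1A1, whose FPKM ratio was 0.515. The part of these marker differences in the results was not tested. The 4 endothelial markers summed to 0.12 TPM in each library, with KDR at 0 in both.

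The family was dominated by its classical agonists in both libraries. IL1B and IL1A together made up 91.8% of the summed TPM of the 10 genes with DMSO and 90.8% with FIN56, and that sum went from 557.7 to 659.0 TPM, a ratio of 1.18. By TPM the order with DMSO was IL1B, IL1A, IL1RAP, IL1R2, IL1RN, IL1R1, IL1RL1, IL36G, IL36RN and IL33. With FIN56 the neighbours IL1RN and IL1R1 changed places, as did IL36G and IL36RN, and the other 6 kept theirs. Whether neighbours in this order differ beyond the spread between cultures cannot be said from 1 library each.

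**Figure D1:**
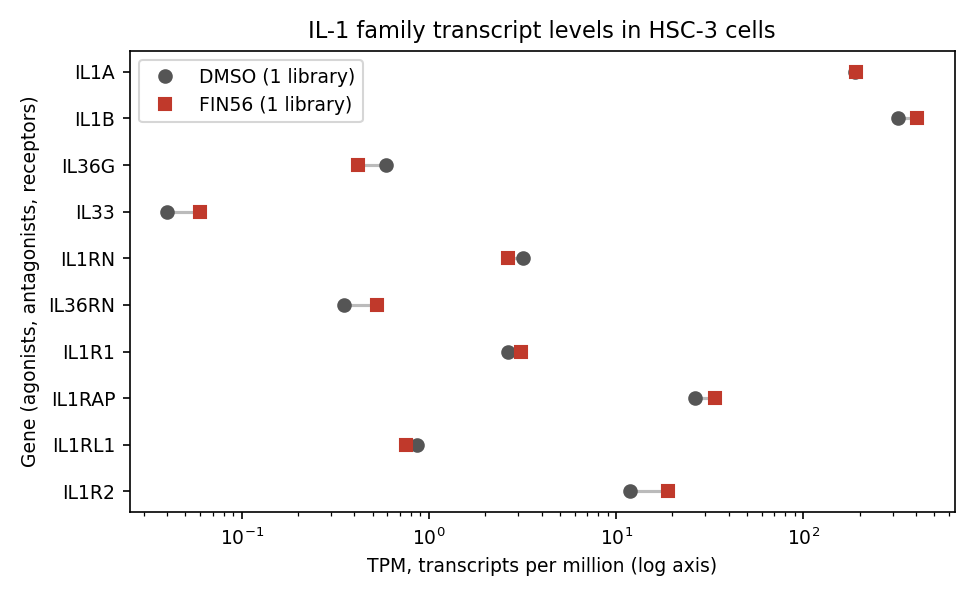
TPM of each IL-1 family gene (log axis) in the DMSO library (circles) and the FIN56 library (squares), 1 library each, with a grey line joining the pair. IL1A and IL1B lie at 189.5 TPM or more in both libraries, whereas IL1RL1, IL36G, IL36RN and IL33 lie below 1 TPM.

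IL1R2 and IL36RN had an FPKM ratio of 1.5 or more, and none of the 10 genes had one of 1/1.5 or less. Over all 24454 genes whose FPKM exceeded 0 in each library, 14.7% reached 1.5 and 17.3% reached 1/1.5, so 2 of 10 and 0 of 10 are near that background. The study's own list of genes raised at this fold is shorter than the 3583 genes that reached 1.5 here, so its selection was not reproduced. IL33 had fewer than 10 expected counts in each library. Of the other 9 genes, 2 reached 1.5 and 0 reached 1/1.5. For comparison, 7.62% of the 17372 genes with 10 or more expected counts in each library reached 1.5 and 11.1% reached 1/1.5. The share at 1.5 was thus higher among the 9, but it rests on 2 genes. The counting interval lay above 1 for IL1B, IL1R1, IL1RAP, IL1R2 and IL36RN, below 1 for IL1RN, and included 1 for IL1A, IL1RL1, IL33 and IL36G. Among those 17372 genes it lay above 1 for 31.3% and below 1 for 31% of genes, since counting error is small at this depth. The median log2 FPKM ratio of the 10 genes was 0.25, and that of those 24454 genes was 0.

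**Figure D2:**
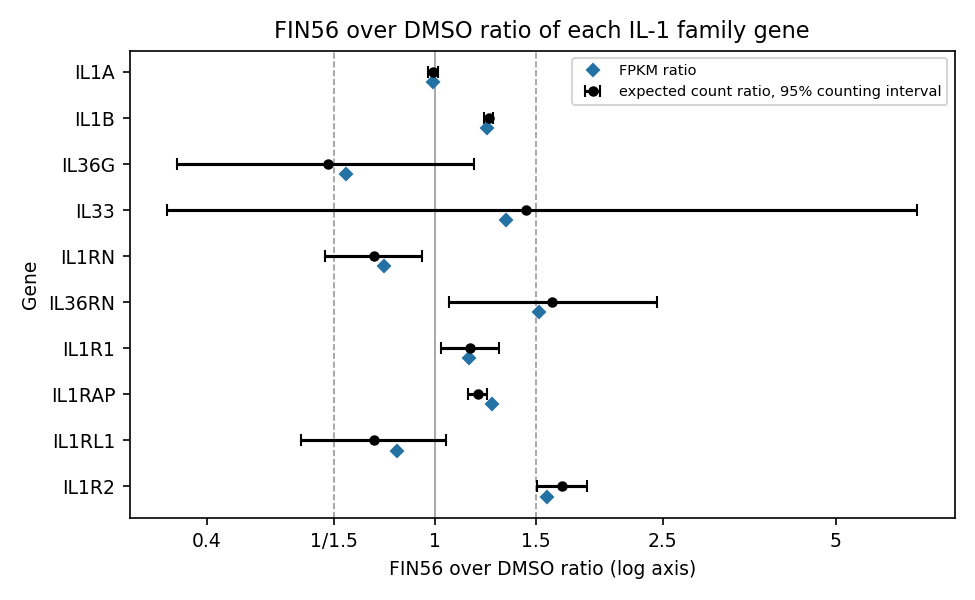
FIN56 over DMSO ratio of each IL-1 family gene on a log axis. Black points are expected count ratios with 95% counting intervals, blue diamonds are FPKM ratios, the solid line marks 1 and the dashed lines mark 1.5 and 1/1.5. IL1R2 is the only gene whose interval lies wholly above 1.5, and the interval of IL33 spans 0.342 to 6.94.

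IL1B encodes IL-1β, made as a precursor that caspase-1 cleaves. The gene (ENSG00000125538) lies at chr2:112829751-112836816 on the minus strand (GRCh38, GENCODE release 44). It had the highest level of the family, with 322.3 TPM in DMSO and 406.3 TPM in FIN56, from 20627 and 26650 expected counts. Its FPKM was 215.48 and 265.81, a ratio of 1.23, and its count ratio of 1.24 had an interval of 1.22 to 1.26. The FIN56 library was thus the higher of the pair by more than counting error, but below the threshold of 1.5. Of the 17372 genes with 10 or more expected counts in each library, 20.6% matched or exceeded this FPKM ratio.

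IL1A encodes IL-1α, an alarmin that is active as its precursor and is released when cells are damaged. The gene (ENSG00000115008) lies next to IL1B, at chr2:112773925-112784493 on the minus strand. It stood at 189.5 TPM with DMSO and 192.3 TPM with FIN56, from 17062 and 17630 expected counts. The FPKM was 126.72 and 125.78, and both the FPKM ratio and the count ratio were 0.993. The counting interval of 0.972 to 1.01 included 1. The level of IL1A therefore differed by less than counting error, while that of its neighbour IL1B was higher in the FIN56 library.

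The other 2 agonists were weakly expressed. IL36G, the IL-36γ of stressed keratinocytes (ENSG00000136688, chr2:112973203-112985658, plus strand), had 31 expected counts with DMSO and 21 with FIN56. Its FPKM was 0.40 and 0.28, a ratio of 0.7, and its count ratio of 0.651 had an interval of 0.355 to 1.17. IL33, an alarmin stored in the nucleus of barrier cells (ENSG00000137033, chr9:6215786-6257983, plus strand), had 4 and 6 expected counts. Its FPKM of 0.03 and 0.04 gave a ratio of 1.33, and the count interval of 0.342 to 6.94 allows a difference in either direction. No difference between the libraries was detectable for either gene at this depth.

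IL1RN encodes the IL-1 receptor antagonist, which keratinocytes also make in an intracellular form. The gene (ENSG00000136689) lies at chr2:113099315-113134016 on the plus strand. It had 237 expected counts with DMSO and 193 with FIN56, at 3.17 and 2.64 TPM. Its FPKM was 2.12 and 1.73, a ratio of 0.816, and its count ratio of 0.782 had an interval of 0.644 to 0.95. IL1RN was thus lower in the FIN56 library by more than counting error, without reaching 1/1.5. It was the only member whose interval lay below 1.

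IL36RN encodes the antagonist of the IL-36 receptor. The gene (ENSG00000136695) lies at chr2:113058638-113065382 on the plus strand. It had 39 expected counts with DMSO and 65 with FIN56, and its FPKM was 0.23 and 0.35, a ratio of 1.52. The count ratio was 1.60, and its interval of 1.06 to 2.45 lay above 1 but reached well below 1.5. At 0.35 and 0.53 TPM IL36RN was weakly expressed in both libraries, and with 0.1 FPKM added to both libraries its ratio was 1.36.

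IL1R2, the decoy receptor for IL-1, had the highest FPKM ratio of the 10 genes. Among the other ligands and receptors given below, IL1RL2 had a higher one, at 1.92. The gene (ENSG00000115590) lies at chr2:101991960-102028544 on the plus strand, and its canonical transcript has 9 exons and 1462 bases. It had 624 expected counts in DMSO and 1084 in FIN56, and its level was 11.9 and 19.0 TPM. The FPKM was 7.94 and 12.46, a ratio of 1.57, and the count ratio was 1.67 with an interval of 1.51 to 1.84. Of the 17372 genes with 10 or more expected counts in each library, 6.19% matched or exceeded this FPKM ratio. IL1R2 was higher in the FIN56 library in each of the 7 other measures and scalings tried, and stayed at 1.5 or more in 6 of them.

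IL1R1, the receptor that carries the IL-1 signal into the cell (ENSG00000115594, chr2:102064544-102179874, plus strand), was far less abundant than its accessory chain. It had 536 and 644 expected counts, at 2.66 and 3.12 TPM. Its FPKM ratio was 1.15, from 1.78 and 2.04, and its count ratio of 1.15 had an interval of 1.03 to 1.30, so the difference was small and just beyond counting error.

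IL1RAP, the accessory chain shared by the receptors of IL-1, IL-33 and IL-36, lies apart from the others at chr3:190514051-190659750 on the plus strand (ENSG00000196083). It had 4673 and 5779 expected counts, at 26.3 and 33.9 TPM. Its FPKM was 17.61 and 22.17, a ratio of 1.26, while its count ratio was 1.19 with an interval of 1.14 to 1.24. The FPKM ratio lay above that interval, and the effective length behind it is given below.

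IL1RL1, known as ST2, is the receptor of IL-33 and is also made as a soluble decoy (ENSG00000115602, chr2:102311502-102352037, plus strand). It had 108 and 88 expected counts, at 0.86 and 0.75 TPM. Its FPKM was 0.57 and 0.49, a ratio of 0.86, and its count ratio of 0.783 had an interval of 0.584 to 1.05. A difference between the libraries was not detectable for this receptor, nor for its ligand IL33.

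The balance between brakes and agonists was read within each library, where the scaling between libraries drops out. With DMSO there were 102 IL1B transcripts for each IL1RN transcript by TPM, and with FIN56 there were 154. The ratio of IL1RN to IL1B counts in FIN56 relative to DMSO was 0.63, with a 95% exact conditional interval of 0.518 to 0.766. For IL1RN over IL1A it was 0.788, with an interval of 0.648 to 0.958. The antagonist was thus lower relative to both agonists in the FIN56 library. IL1A over IL1B was 0.80, with an interval of 0.778 to 0.822, so the pair did not move alike.

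The decoy moved the other way from the antagonist. IL1R2 stood at 4.47 times the TPM of IL1R1 with DMSO and 6.10 times with FIN56, and the ratio of their counts in FIN56 relative to DMSO was 1.45, with an interval of 1.24 to 1.69. IL1RAP over IL1R1 was 1.03, with an interval of 0.91 to 1.16, so no difference within this signalling pair was detectable. IL36RN over IL36G was 2.45, with a wide interval of 1.18 to 5.16 that rests on fewer than 100 counts for each gene in each library. These 6 ratios share genes and are not independent of one another, and their intervals were not adjusted for their number.

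**Figure D3:**
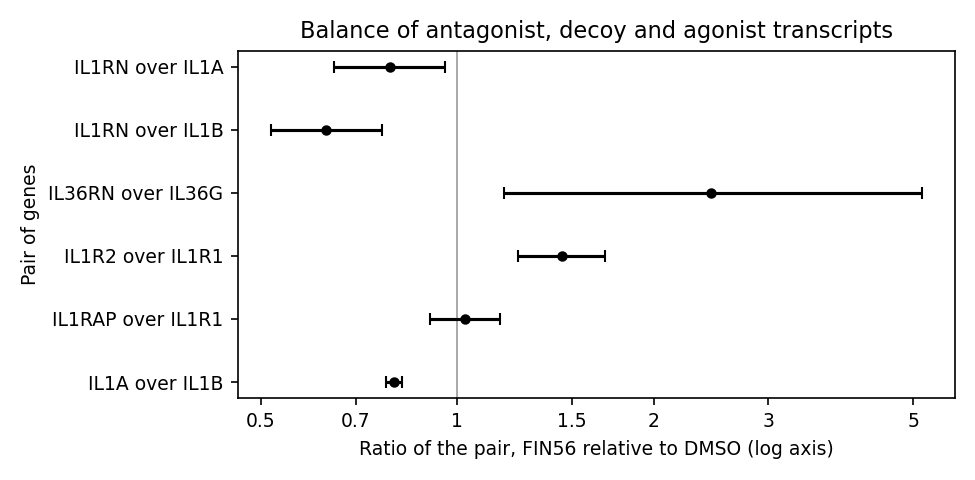
Ratio of 2 genes' expected counts in the FIN56 library relative to the same ratio in the DMSO library (log axis), with 95% exact conditional intervals that cover counting error only, and a line at 1. The ratios of IL1RN to IL1B and IL1A lie below 1, those of IL1R2 to IL1R1 and IL36RN to IL36G lie above 1, and the interval of IL1RAP to IL1R1 includes 1.

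RSEM divides each gene by an effective length, the mean over its transcripts weighted by their estimated abundance. A change in it can, but need not, come from a change in the estimated transcript mix. The effective length implied by the deposited counts and FPKM was 1918 bases for IL1A in both libraries. It was 1364 and 1372 bases for IL1B. For IL1RAP it went from 3781 to 3568 bases, a change of -5.64%, and a shorter length raises the FPKM ratio over the count ratio. For IL1R2 it went from 1120 to 1191 bases, a change of 6.34%, and for IL1RL1 from 2700 to 2458 bases, a change of -8.95%. For the 9 genes other than IL33 the implied change was at most 8.95% in size, and it passed 10% for 17.4% of all genes with 10 or more expected counts in each library. FPKM with 2 decimals leaves the length uncertain for weakly expressed genes, and for IL33 it could lie anywhere from 1628 to 2280 bases with DMSO. Transcript estimates were not used here, so whether transcripts differ, and which, cannot be said.

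Of the 10 genes, 8 lie on chromosome 2, the receptors IL1R2, IL1R1 and IL1RL1 in 1 cluster and the 5 ligand genes other than IL33 in another. Among these genes, the neighbours IL1A and IL1B had count intervals that did not overlap, and the same held for IL1R2 and IL1R1. Of the other pairs next in order among the 8, IL1B with IL36G and IL36RN with IL1RN did not overlap either. IL1R1 with IL1RL1, IL1RL1 with IL1A, and IL36G with IL36RN did overlap. Intervals are narrow where counts are high, as for IL1A and IL1B. How often this holds for gene pairs in general was not counted, so no result about neighbours is drawn from it. For single genes with 10 or more expected counts in each library, the interval lay above 1 for 31.3% and below 1 for 31%. The bases just before the annotated start are shown for both genes at or above 1.5 and, for contrast, for the abundant IL1A with its ratio of 0.993. RefSeq start windows (GRCh38.p14) matched all 10 genes, with 20 starts in all. Each run has 130 bases, 5′ to 3′ on the gene's strand, and ends at the base before the start. IL1R2 is chr2:101991830-101991959 on the plus strand, IL36RN is chr2:113058508-113058637 on the plus strand, and IL1A is chr2:112784494-112784623 on the minus strand. Capitals mark matches, on either strand, to TGANTCA (AP-1), TGACNNNGC (the antioxidant response element), TATAAA (the TATA box) or the κB consensus.
IL1R2: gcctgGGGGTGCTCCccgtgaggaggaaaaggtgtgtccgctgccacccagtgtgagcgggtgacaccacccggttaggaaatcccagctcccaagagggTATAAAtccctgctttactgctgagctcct
IL36RN: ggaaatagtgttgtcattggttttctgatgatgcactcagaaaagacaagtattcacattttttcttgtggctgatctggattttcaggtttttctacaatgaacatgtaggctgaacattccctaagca
IL1A: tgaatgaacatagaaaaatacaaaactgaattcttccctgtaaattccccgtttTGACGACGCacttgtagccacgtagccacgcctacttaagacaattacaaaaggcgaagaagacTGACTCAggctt

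In IL1R2 the capitals are a κB match from -125 to -116 and a TATA box from -30 to -25, counted from the start as 1. In IL1A they are an antioxidant response element from -76 to -68 and an AP-1 match from -12 to -6, and the IL36RN run holds none of the 4 motifs. A κB match lies just past that run, at bases 1 to 10 of the same IL36RN start. The other RefSeq start of IL1R2, at 101998961, has neither a κB nor a TATA match in its window, but has an antioxidant response element match at bases 10 to 18. Outside the printed run, the window of the IL1A start shown also holds a TATA match from -239 to -234 and an AP-1 match from 39 to 45. In windows of 300 bases, 250 before the start and 50 from it on, AP-1 was matched in 4 of the 20 windows of these genes, the antioxidant response element in 5, the κB consensus in 2 and the TATA box in 5. Of all 35116 such windows, 7.71%, 13.3%, 11.3% and 11.5% held these motifs. Windows of 1 gene can overlap, as both of IL1A do, so a site can be counted more than once. By gene, these motifs were matched in 3, 4, 2 and 5 of the 10. Of 27305 genes, 9.37%, 16.1%, 13.3% and 14% held them. The 4 motifs did not overlap in the runs shown. A match of letters is a description of the sequence and not evidence that a factor binds there.

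The other genes of the pathway were read from 4 lists of 68 genes, of which 62 had an FPKM above 0 in both libraries. Of these, 9 were at 1.5 or more and 7 at 1/1.5 or less, beside the 14.7% and 17.3% of all genes, and their median log2 FPKM ratio was -0.0022. Among the 58 with 10 or more expected counts in each library, 7 were at 1.5 or more and 7 at 1/1.5 or less. Over all such genes the shares were 7.62% and 11.1%. These shares are also the background for the counts of each list below.

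Among 12 other ligands, receptors and binding proteins, 9 had an FPKM above 0 in both libraries, with 3 at 1.5 or more, none at 1/1.5 or less and a median log2 FPKM ratio of 0.17. IL1RL2, the receptor chain for IL-36, had 305 and 504 expected counts. Its FPKM was 1.97 and 3.79, a ratio of 1.92, and its count ratio was 1.59 with an interval of 1.37 to 1.84. The other 2 rested on few reads, with 4 and 11 expected counts for IL1F10 and 1 and 12 for IL18RAP, whose count ratio of 11.5 had an interval of 1.71 to 492.8. They are named here after their values were seen. IL18, an agonist also matured by caspase-1, was abundant at 47.2 and 53.16 FPKM, a ratio of 1.13.

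Of 16 receptor-proximal signalling genes, none reached 1.5 and 3 reached 1/1.5, with a median log2 FPKM ratio of 0.085. IRAK1, a kinase of the receptor complex, was lower, with 19871 and 13287 expected counts and an FPKM ratio of 0.659. PELI3, a ubiquitin ligase that acts with the IRAK kinases, had a ratio of 0.633, and its expected counts were not whole. The third gene, PELI2, had 13 and 10 expected counts and is named after its values were seen. MYD88, the adaptor, had 10.51 and 14.54 FPKM, a ratio of 1.38, and TRAF6, the ubiquitin ligase downstream of it, a ratio of 1.10.

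Of 16 genes of cytokine processing, release and receptor shedding, 13 had an FPKM above 0 in both libraries, with 2 at 1.5 or more and 1 at 1/1.5 or less. CTSS, a lysosomal protease, stood at 15.33 and 34.80 FPKM, a ratio of 2.27, and S100A13, a partner of IL-1α export, at a ratio of 1.59 with counts that were not whole. GSDMD, the pore through which IL-1β leaves the cell, was lower at a ratio of 0.634, from 4286 and 2772 expected counts. CASP1 had 36.12 and 37.26 FPKM, a ratio of 1.03. The median log2 FPKM ratio of the list was 0.045.

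Of 24 IL-1 responsive genes of epithelial cells, 4 were at 1.5 or more and 3 at 1/1.5 or less, with a median log2 FPKM ratio of -0.11. Higher in the FIN56 library were MMP3, a matrix protease (ratio 2.52), SERPINB2, a protease inhibitor (1.80), PTGS2, the inducible prostaglandin synthase (1.68), and LIF, a cytokine of the IL-6 family (1.53). LIF had 206 and 256 expected counts, and its count interval of 0.990 to 1.44 included 1. Lower were CSF3, which encodes the granulocyte growth factor G-CSF (0.304, from 554 to 180 expected counts), ZC3H12A, an RNase that degrades cytokine mRNAs (0.597), and CXCL3, a neutrophil chemokine (0.644). CXCL3 and MMP3 had counts that were not whole. CXCL8 had a ratio of 0.815 and IL6 one of 1.13. The count interval lay above 1 for 6 of the 24 genes and below 1 for 13. Over all genes with 10 or more expected counts in each library, these shares were 31.3% and 31%. Genes of this list thus stood on both sides of 1, more of them lower, beside an IL1B ratio of 1.23.

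**Figure D4:**
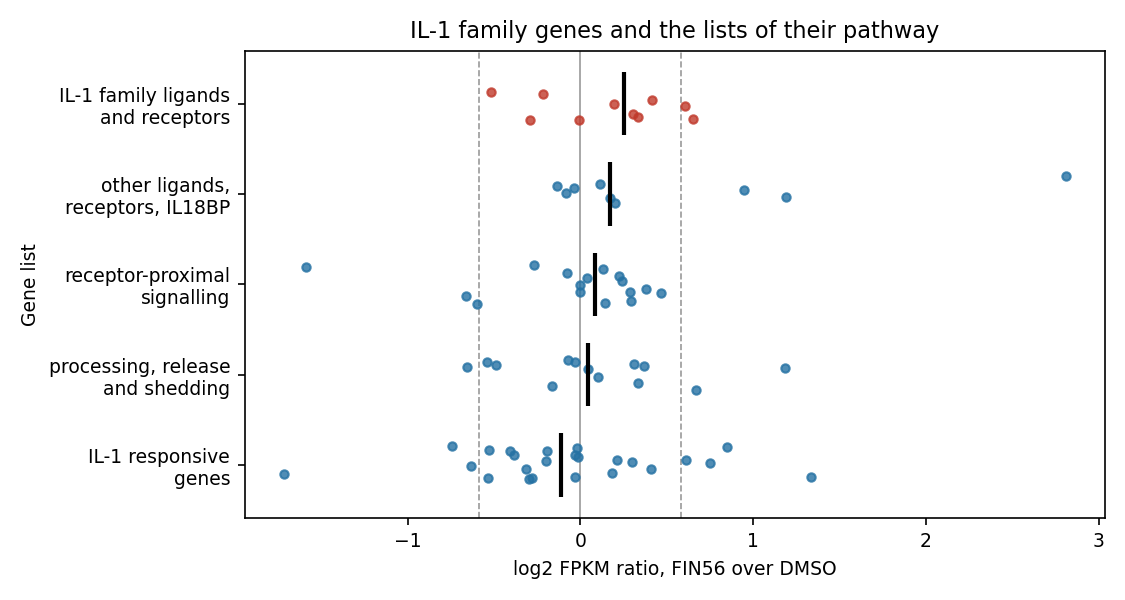
log2 FPKM ratio, FIN56 over DMSO, of each gene whose FPKM exceeded 0 in each library, for the 10 IL-1 family genes and 4 lists of their pathway. Points are genes, spread vertically for legibility, black bars are list medians, the solid line marks 0 and the dashed lines mark ratios of 1.5 and 1/1.5. The medians run from -0.11 for the IL-1 responsive genes to 0.25 for the 10 IL-1 family genes.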

How the data were processed

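Per the labels and the paper's methods, which describe tumor samples, the authors aligned reads with STAR 2.6.1a to GRCh38 and estimated values per gene with RSEM 1.3.1. The deposited expected counts are not normalized. The deposited FPKM and TPM are divided by effective gene length and library size, the TPM to a fixed sum, and carry 2 decimals. The deposited log2 values are rlog values made with DESeq2 1.26.0. Each of the 8 columns bears the name of 1 library.

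FPKM ratios were compared with 1.5 and 1/1.5 in whole hundredths. Expected counts were rounded for intervals (scipy 1.17.1). Pairs for the within-library ratios were an antagonist, decoy or accessory chain over its counterpart, and IL1A over IL1B. Positions came from GENCODE release 44, a later annotation than the Ensembl release 94 of the methods, and sequences from RefSeq. The 10 genes, the lists, which were written from general knowledge, and the tests were chosen with earlier results of these data known. Named were the 10 genes, list genes with at least 100 expected counts together past either threshold, and MYD88, TRAF6, CASP1, IL18, IL6, CXCL8 and GPX4. Outside this rule, marker genes and 3 list genes with few counts, PELI2, IL1F10 and IL18RAP, are named. The values of 1 marker gene are not reported here. With 2 libraries no genes of like pattern were sought. Alternatives were TPM, rlog values, edgeR 4.0.16 TMM, DESeq2 1.42.0 size factors, library totals, pseudocounts of 0.1 and 1 FPKM, minimum values and a fold of 2. Count ratios and their intervals were checked on counts simulated with counting error only. That check covers neither FPKM ratios nor the spread between cultures. Python 3.11.15 and R 4.3.3 were used.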

Additional observations from a re-analysis of the deposited data

How the results depend on the processing

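No paired analysis was possible because the libraries are single, and none could be left out. Of the 10 genes, 2 had an FPKM ratio of 1.5 or more. This count was 0 with rlog values, 0 at a fold of 2, and 1 with 0.1 or 1 FPKM added, or among the 6 genes with an FPKM of 1 or more in each library. It was 3 with TPM, where IL33 stood at exactly 1.5 from 0.04 and 0.06 TPM. The count at 1/1.5 or less was 0, and 1, namely IL36G, with TMM or library totals. IL1R2 ranged from 1.20 with rlog values, which draw the libraries together, to 1.71 with DESeq2 size factors, and IL36RN from 1.04 to 1.64. IL1A lay on either side of 1, from 0.991 to 1.02, and the other 9 kept their direction under all 7 other measures, scalings and pseudocounts. The 6 within-library ratios stayed inside their intervals with TPM. Of the 68 pathway genes, 9 were at 1.5 or more and 7 at 1/1.5 or less, against 0 and 0 with rlog values, and the lower count was 4 with 1 FPKM added. No scaling moved the median log2 ratio of genes with 10 or more expected counts in each library by more than 0.035. Depth limits IL33, IL36G, IL36RN and IL1RL1, each with at most 108 expected counts in either library.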

Other observations

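The FPKM ratio and the count ratio differed for IL1RL2 and LIF, which were picked here after their values were seen. The implied effective length of IL1RL2 went from 2206 to 1820 bases and that of LIF from 3763 to 2944 bases, beside count ratios of 1.59 and 1.19. TRAF6 went the other way, from 3924 to 4411 bases, with a count ratio of 1.23. Whether these changes reflect a different mix of transcripts was not tested. For the receptor chains that bind IL-36, IL1RL2 and IL1RAP, the count intervals lay above 1 (1.37 to 1.84 and 1.14 to 1.24), while their agonist IL36G had 31 and 21 expected counts.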
